A study of Arabidopsis thaliana with 27 samples.

Results

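The change from 16 to 22 °C was described in seedlings of the ELF3 S364P line of Arabidopsis thaliana, which per its genotype label carries a serine-to-proline change in EARLY FLOWERING 3 (ELF3). The 6 libraries are the 3 from the S364P line at 16 °C and the 3 at 22 °C, chosen by their column names from 27 libraries of whole seedlings. The study measured mRNA abundance, as TPM (transcript abundance scaled for gene length to a fixed total per library), in wild type, the S364P line and an ELF3 T-DNA insertion line at 16, 22 and 29 °C, with 3 libraries in each of 9 groups. All lines are in the Columbia background per the labels' protocol, which names an elf3 mutant called ELF3-16 and an insertion mutant called ELF3-101. The same protocol lists sampling at zeitgeber time 8 h for 16 °C, 16 h for 22 °C and 24 h for 29 °C. By this listing the temperatures may also differ in time of day, and temperature and listed time cannot be told apart within a line. Wild type and the insertion line have the same pairing of temperature and listed time and are used below only to show where the S364P change differed. The labels do not say whether replicates came from separate sowings, so the p-values rest on the spread among these libraries alone, and that spread may be technical. They also give no seedling age, day length or allele history beyond the line names.

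ELF3 is a scaffold protein that joins the GARP transcription factor LUX and the small protein ELF4 into the evening complex, a repressor that binds DNA at dusk and in the early night. Known targets of the complex include the clock genes PRR7, PRR9, GI and LUX, and PIF4, a bHLH factor that turns on auxin synthesis and cell elongation genes in warm seedlings. ELF3 binds its targets less strongly in the warm, and plants without ELF3 have long hypocotyls, an arrested clock in constant light and early flowering.

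Each library listed between 19164 and 20084 genes at 1 TPM or more. Organelle-encoded genes took 0.0935 to 0.161% of the total TPM. Within groups, libraries correlated at Pearson's r 0.986 to 0.993 over all 33039 genes on the log2(TPM + 1) scale, and for the S364P line the 9 pairs across the temperatures gave 0.965 to 0.973 against 0.988 to 0.993 for the 6 pairs within a temperature. The depth behind each value is unknown, because TPM keeps no read number, and no counting intervals are given. ELF3 itself was at 30.7 ± 1.6 TPM in the S364P line at 16 °C, 27.1 ± 1.97 TPM in wild type and 32.3 ± 1.6 TPM with the insertion (SD, n = 3 each), and at 22 °C it was at 46.9 ± 0.81 TPM, 20.4 ± 2.54 TPM and 35.3 ± 3.83 TPM in the same order, with every S364P library above every wild-type library at both temperatures. The ELF3 change from 16 to 22 °C in the S364P line exceeded that of wild type by 0.99 ± 0.11 (adjusted p = 2.01e-06), on the log2(TPM + 1) scale by limma. The amino acid change itself cannot be read from a TPM table. Of the markers of other organs, all 10 seed marker genes stayed under the filter on low values, and the summed TPM of 7 flower organ genes was 0.73 to 0.93 at 16 °C and 4.11 to 4.42 at 22 °C in the S364P line. Root markers did move with temperature, as described with the iron genes below.

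The S364P transcriptome differed widely between 16 and 22 °C. Of 21396 genes tested, 7081 (33.1%) were higher and 4734 (22.1%) were lower at 22 °C, at an adjusted p under 0.05 by limma on log2(TPM + 1) with Benjamini-Hochberg adjustment. All differences below are on this scale, given as 22 minus 16 °C with the standard error, and they understate changes of genes near or below 1 TPM. With a log2 difference of at least 1 also required, 999 genes (4.67%) were higher and 889 (4.15%) lower. The median difference over all genes was 0.07, so medians of gene lists are given relative to it. The split of calls depended on scaling: 59.9% of the called genes were higher on the TPM scale, 45.8% after median-of-ratios scaling, which moved the all-gene median by -0.10, and 51.5% after quantile normalization. Because 55.2% of the genes passed the test, gene lists are read against 33.1% higher and 22.1% lower. Counts from the contrast of the S364P change with that of wild type are read against 7.81% higher and 6.27% lower. In whole seedlings, fewer cells of a type and less RNA per cell cannot be told apart.

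The genes of the evening complex rose or did not pass the test. Of 6, 4 were called higher, and the list had a median 0.69 above that of all genes. ELF3 was 29.5, 32.5 and 30.03 TPM at 16 °C and 47, 47.7 and 46.1 TPM at 22 °C, with no overlap between the temperatures, as was the case for 37.5% of all genes in the upward and 27% in the downward direction, and the difference was 0.6 ± 0.078 (adjusted p = 1.25e-06). LUX, the DNA-binding subunit, was 9.3, 9.59 and 10.01 TPM at 16 °C and 47.9, 43 and 50.1 TPM at 22 °C. Every 22 °C library was above every 16 °C library, and the difference was 2.17 ± 0.089 (adjusted p = 3e-14). BOA, a close relative of LUX, was 2.11, 2.09 and 2.25 TPM at 16 °C and 13.8, 13.4 and 14.2 TPM at 22 °C, which likewise do not overlap, a difference of 2.23 ± 0.1 (adjusted p = 8.91e-14). ELF4-L4, a relative of ELF4, rose by 0.93, whereas ELF4 itself was at 9.66, 10.7 and 8.62 TPM and 11.4, 10 and 10.6 TPM at 16 and 22 °C, with 0.13 (adjusted p = 0.591).

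Of 8 genes known as direct evening complex targets, 6 rose and 1, PRR9, was called lower. PIF4, the growth factor named above, was 15.4, 14.02 and 13.4 TPM at 16 °C and 67.7, 64.8 and 68.5 TPM at 22 °C. The lowest library at 22 °C was 4.21 times the highest at 16 °C, and the difference was 2.16 ± 0.088 (adjusted p = 3.16e-14). PRR7, a morning-phased repressor of CCA1 and LHY, was 15.9, 16.7 and 17.8 TPM at 16 °C and 40.8, 40.9 and 39.2 TPM at 22 °C and rose by 1.22 ± 0.12 (adjusted p = 2.47e-08). GI, which stabilizes the photoreceptor ZTL and acts in the photoperiod pathway, was 2.8, 3.07 and 2.8 TPM at 16 °C and 9.38, 8.01 and 10.2 TPM at 22 °C and rose by 1.39 ± 0.12 (adjusted p = 2.78e-09). For all 3 genes the temperatures did not overlap. PIF5, a close relative of PIF4, rose by 0.33 ± 0.065 (adjusted p = 2.13e-04), a call that ended after median-of-ratios scaling (0.20, adjusted p = 0.0581). PRR9 was 6.93, 8.55 and 7.64 TPM at 16 °C and 7.01, 5.5 and 6.65 TPM at 22 °C, a difference of -0.24 ± 0.089 (adjusted p = 0.0275) that failed the test in 5 of 15 alternatives, among them a pseudocount of 0.1 TPM (adjusted p = 0.0626) and leaving out the 22 °C replicate 2 (-0.15, adjusted p = 0.186). LNK1, a coactivator of morning clock factors, was at 19.5, 21.03 and 20.5 TPM and 23.9, 20.7 and 22.9 TPM, with 0.14 (adjusted p = 0.262).

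PIF4, PRR7 and GI stood at levels in the S364P line that wild type did not reach at either temperature. PIF4 in wild type was 0.81, 0.8 and 0.75 TPM at 16 °C and 3.98, 3.97 and 4.14 TPM at 22 °C, below every S364P library. PRR7 in wild type was 0.8, 0.93 and 1.17 TPM and 1.98, 1.03 and 1.23 TPM, and GI was 0.08, 0.09 and 0.08 TPM and 0.57, 0.29 and 0.16 TPM. Levels above wild type were not particular to the S364P line. At both temperatures every insertion-line library was also above every wild-type library for PIF4, PRR7 and GI. At 16 °C the insertion-line means were 41.1 TPM for PIF4, 51.0 TPM for PRR7 and 22.7 TPM for GI. The S364P means at 16 °C were lower, at 14.3, 16.8 and 2.89 TPM in the same order. Whether the temperature change of PIF4 differed between the lines depended on the pseudocount: the S364P change exceeded the wild-type change by 0.66 ± 0.12 (adjusted p = 8.67e-04) with 1 TPM added, and by 0.0057 (adjusted p = 0.986) with 0.1 TPM added. GI behaved likewise, with 1.09 ± 0.17 (adjusted p = 1.24e-04) against 0.48 (adjusted p = 0.307). For LUX, the excess over the wild-type change was 1.6 ± 0.13 (adjusted p = 1.46e-08) and stayed at 1.62 (adjusted p = 2.83e-08) with 0.1 TPM added. For PRR7 it was 0.94 ± 0.17 (adjusted p = 6.8e-04) and 0.79 (adjusted p = 0.0255) with 0.1 TPM added.

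**Figure D1:**
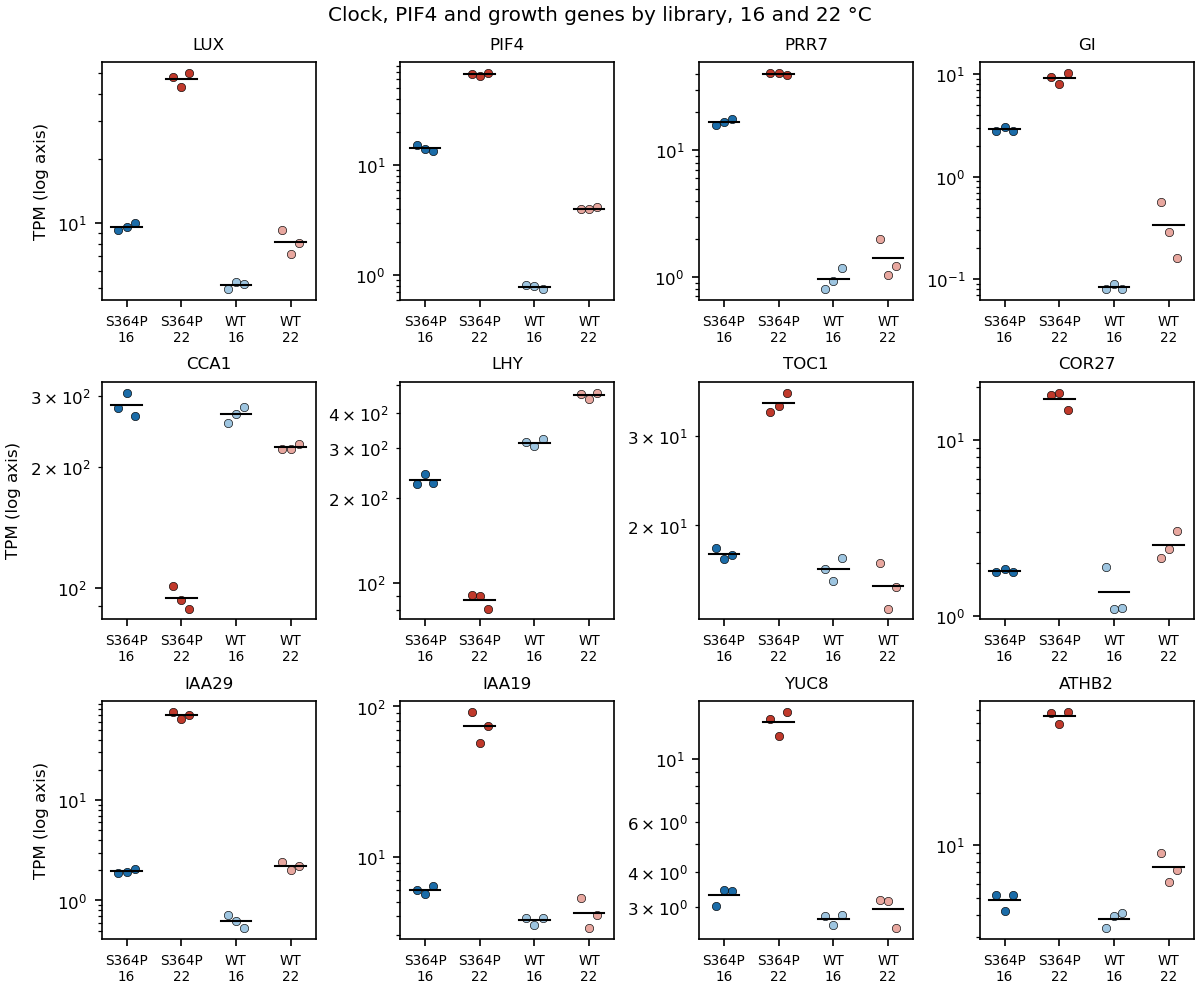
TPM on log axes of 12 genes in the 3 libraries (points) and their mean (line) of the S364P line and wild type (WT) at 16 and 22 °C. LUX, PIF4, IAA29, IAA19, YUC8 and ATHB2 are highest in the 3 S364P libraries at 22 °C, where CCA1 and LHY are lowest.

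CCA1 and LHY of the morning loop fell, while most evening genes rose. CCA1 and LHY are paired MYB factors whose RNA peaks near dawn and which repress evening genes. CCA1 was 279.9, 306 and 268 TPM at 16 °C and 101, 93.4 and 88.9 TPM at 22 °C, a difference of -1.58 ± 0.098 (adjusted p = 1.6e-11). LHY was 224, 242 and 225 TPM at 16 °C and 90.3, 89.5 and 80.96 TPM at 22 °C, a difference of -1.4 ± 0.11 (adjusted p = 8.46e-10). Neither gene overlapped between the temperatures. In wild type LHY went the other way, from 314, 305 and 321 TPM to 465, 447 and 471 TPM, a rise of 0.56 ± 0.11 (adjusted p = 4.71e-04), and the S364P change was -1.95 ± 0.16 (adjusted p = 2.25e-08) against it. CCA1 in wild type went from 258, 271 and 282 TPM to 222, 221 and 228 TPM, and the S364P change was -1.31 ± 0.14 (adjusted p = 1.05e-06) below that of wild type. Against the insertion line, the CCA1 change did not pass the test (-0.18, adjusted p = 0.584), while that of LHY did (-0.71, adjusted p = 0.00892). RVE7, a MYB relative of CCA1, rose by 1.61 ± 0.11 (adjusted p = 8.37e-11). Over the 14 morning genes tested, 4 higher and 3 lower were called, with a median 0.04 above that of all genes, or -0.03 relative to it after quantile normalization, so CCA1 and LHY did not stand for the list.

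The evening list moved together: of 13 genes, 12 rose and none fell, with ELF4 not called. The median was 1.08 above that of all genes against 0.2 in wild type. Its members LUX and BOA are also in the evening complex and target lists, so the counts of these lists are not separate evidence. The contrast with wild type called 11 higher among the 13, where 7.81% of all genes were higher and 6.27% lower. TOC1, the pseudo-response regulator that represses CCA1 and LHY, was 18.1, 17.2 and 17.5 TPM at 16 °C and 33.4, 34.2 and 36.4 TPM at 22 °C and rose by 0.94 ± 0.071 (adjusted p = 3.41e-10), where wild type gave -0.11 (adjusted p = 0.255). PRR5, another such repressor, rose by 0.48 ± 0.15 (adjusted p = 0.00774), but without the 22 °C replicate 3 the difference was 0.37 (adjusted p = 0.0575). COR27, a light- and cold-regulated partner of evening genes, was 1.78, 1.86 and 1.78 TPM at 16 °C and 18.1, 18.7 and 14.9 TPM at 22 °C, a rise of 2.69 ± 0.15 (adjusted p = 2.24e-12), which exceeded that of wild type by 2.11 ± 0.21 (adjusted p = 3.9e-07). The labels list the 16 °C libraries at 8 h and the 22 °C libraries at 16 h after lights on. Over both temperatures the wild-type libraries held CCA1 at no less than 221 TPM and GI at no more than 0.570 TPM, and as background CCA1 is known as a dawn gene and GI as a late-day gene. How the clock hour of the libraries relates to the listed times was not tested.

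Light-signalling and elongation factors rose in large part. Of 29 PIF and light signalling genes, 22 higher and 5 lower were called, with a median 0.67 above that of all genes (0.17 in wild type). ATHB2, an HD-ZIP factor of the shade response, was 5.19, 4.22 and 5.2 TPM at 16 °C and 57.1, 49.7 and 58.1 TPM at 22 °C and rose by 3.25 ± 0.12 (adjusted p = 5.32e-15). PAR1, an atypical bHLH that restrains PIF activity, was 5.82, 7.06 and 7.49 TPM at 16 °C and 76.1, 71.8 and 70.3 TPM at 22 °C and rose by 3.25 ± 0.14 (adjusted p = 7.03e-14). HFR1, which also binds and blocks PIFs, was 2.72, 2.47 and 3.03 TPM at 16 °C and 31.7, 22.6 and 30.2 TPM at 22 °C and rose by 2.95 ± 0.11 (adjusted p = 8.99e-15). The lowest 22 °C library was 9.56 times the highest 16 °C library for ATHB2, 9.38 times for PAR1 and 7.45 times for HFR1. The 5 genes that fell were PIF7, HY5, HYH, BBX24 and BBX25, from -1.73 for HYH to -0.31 for BBX24. HY5 and HYH are bZIP factors that promote light-grown development, and HY5 was 16.6, 18.6 and 17.1 TPM at 16 °C and 10.6, 15.2 and 11.8 TPM at 22 °C. Against wild type, 17 higher and 5 lower of the 29 were called, where 7.81% of all genes were higher and 6.27% lower. HY5 differed by -0.69 ± 0.18 (adjusted p = 0.0121).

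Auxin-responsive genes held several of the largest rises in the transcriptome. IAA29, an Aux/IAA gene induced by PIFs and auxin, was 1.88, 1.9 and 2.08 TPM at 16 °C and 75.3, 64.8 and 69.8 TPM at 22 °C, a rise of 4.58 ± 0.12 (adjusted p = 3.43e-17). IAA19, another fast auxin-response gene, was 6.02, 5.61 and 6.39 TPM at 16 °C and 91.8, 57.4 and 73.8 TPM at 22 °C, a rise of 3.4 ± 0.18 (adjusted p = 8.72e-13). SAUR22, of a family of small proteins that promote acid growth, was 1.03, 1.15 and 0.8 TPM at 16 °C and 25.3, 23.4 and 26.5 TPM at 22 °C, a rise of 3.71 ± 0.16 (adjusted p = 7.04e-14). The lowest 22 °C library was 31.2 times the highest 16 °C library for IAA29, 8.98 times for IAA19 and 20.4 times for SAUR22. Of 27 auxin-response genes, 22 higher and 2 lower were called, the 2 being IAA17 and GH3.17, and the median was 0.96 above that of all genes, against 0.11 for wild type and 0.34 for the insertion line. Against wild type, 19 higher were called, or 70.4% of the 27, where 7.81% of all genes were higher. SAUR19 to SAUR24 are near-identical neighbours, and how reads were split between them is not known, so their 6 rises are not separate evidence. Among 10 auxin synthesis genes, 3 higher and 3 lower were called. YUC8, a flavin monooxygenase that makes auxin and a PIF4 target, was 3.04, 3.45 and 3.42 TPM at 16 °C and 13.8, 12.1 and 14.6 TPM at 22 °C, a rise of 1.75 ± 0.11 (adjusted p = 1.65e-11) that exceeded that of wild type by 1.67 ± 0.15 (adjusted p = 1.31e-07). YUC9 rose by 1.19 and YUC2 by 0.97. CYP79B2, which makes indole-3-acetaldoxime for indole glucosinolates and camalexin as well as auxin, fell by 1.46 ± 0.19 (adjusted p = 9.6e-07).

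Cell wall and growth hormone genes rose less uniformly. Of 15 wall-loosening genes, 8 higher and 3 lower were called, with a median 0.39 above that of all genes. XTR7, a xyloglucan endotransglucosylase of the shade response, was 10.9, 13.8 and 13.6 TPM at 16 °C and 34.8, 65.7 and 42.5 TPM at 22 °C, a rise of 1.78 ± 0.22 (adjusted p = 4.92e-07). XTH17 rose by 1.93 and TCH4 by 1.66, both of the same enzyme family. The 3 expansin genes that fell were EXPA1, EXPA5 and EXPA10. The call on EXPA8 and on EXPA11, both higher, ended after median-of-ratios scaling, which left 6 higher and 3 lower. Of 19 brassinosteroid and gibberellin genes tested out of 21, 12 higher and 2 lower were called. CPD, a brassinosteroid synthesis enzyme, was 61.96, 62.9 and 61.8 TPM at 16 °C and 219, 206 and 212 TPM at 22 °C and rose by 1.75 ± 0.087 (adjusted p = 4.49e-13). GAI, a DELLA repressor of gibberellin response, was 11.3, 11.6 and 12 TPM at 16 °C and 49.9, 42.7 and 47.6 TPM at 22 °C and rose by 1.91 ± 0.065 (adjusted p = 2.62e-15). GA20OX2, a gibberellin synthesis enzyme, rose by 1.26, while GA3OX2, of the following step, fell by 1.71 and GA3OX1 fell by 0.35.

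Flowering genes gave no common direction. FT, the mobile flowering signal, was 1.12, 0.8 and 1.05 TPM at 16 °C and 0, 0.07 and 0.07 TPM at 22 °C, near the lower end of what the table resolves, and wild type was at 1.03, 0.77 and 1.02 TPM and 0, 0.14 and 0 TPM. The differences were -0.92 ± 0.13 (adjusted p = 3.75e-06) in the S364P line and -0.89 ± 0.13 (adjusted p = 1.39e-05) in wild type. SPL3, a squamosa-type factor that advances flowering, was 1.33, 1.66 and 2.06 TPM at 16 °C and 15.04, 16.4 and 16.4 TPM at 22 °C, a rise of 2.66 ± 0.15 (adjusted p = 3.54e-12). FLP1, a small protein of the FPF1 family that promotes flowering and growth, was 0.59, 0 and 0 TPM at 16 °C and 16.5, 14.4 and 15.66 TPM at 22 °C, with 2 of the 3 libraries at 16 °C listed at 0, and wild type at 22 °C was 0.55, 0.25 and 0.86 TPM. CO, the photoperiod regulator of FT, rose by 0.53 ± 0.087 (adjusted p = 2.18e-05). Of 9 promoters tested out of 14, 4 higher and 2 lower were called, and of 18 repressors 6 higher and 7 lower. SVP, a MADS repressor active at cool temperature, was 12.6, 14.8 and 12.2 TPM at 16 °C and 34.5, 32.3 and 33.9 TPM at 22 °C, a rise of 1.29 ± 0.12 (adjusted p = 7.51e-09) that exceeded that of wild type by 0.97 ± 0.17 (adjusted p = 3.85e-04). The SVP rise did not pass the test of a difference from the insertion line (0.06, adjusted p = 0.902). FLC, the vernalization-sensitive repressor, rose by 0.3 ± 0.093 (adjusted p = 0.00848), a call that ended after median-of-ratios scaling (0.19, adjusted p = 0.143), after quantile normalization, and without the 16 °C replicate 3 (0.25, adjusted p = 0.0523). TEM1 rose by 1.03 and SMZ fell by 0.9. SEP3, the 1 flower organ gene above the filter, was 0.4, 0.62 and 0.56 TPM at 16 °C and 3.76, 3.16 and 3 TPM at 22 °C and also rose in wild type, by 1.82 against 1.49 in the S364P line.

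Cold-response genes fell, with exceptions that separated the lines. Of 24 tested out of 25, 5 higher and 13 lower were called, with a median of -0.85 relative to all genes against -1.15 in wild type. COR15A, a chloroplast-protecting protein of freezing tolerance, was 8.69, 9.01 and 7.04 TPM at 16 °C and 0.39, 0.33 and 0.21 TPM at 22 °C, a difference of -2.82 ± 0.23 (adjusted p = 1.09e-09). KIN1, a small cold-induced protein, was 77.9, 88.6 and 77.3 TPM at 16 °C and 8.48, 6.81 and 6.92 TPM at 22 °C, a difference of -3.29 ± 0.16 (adjusted p = 2.32e-13). CBF3, of the transcription factors that induce these genes, stayed under the filter, at 0.09, 0.08 and 0.09 TPM and 0, 0 and 0.08 TPM. The 5 genes that rose were COR27, COR28, COR413IM1, RCI2A and GRP8. COR413IM1, a protein of the chloroplast inner membrane, was 16.2, 12.3 and 18.9 TPM at 16 °C and 67.7, 63.8 and 68.5 TPM at 22 °C and rose by 2.03 ± 0.19 (adjusted p = 1.14e-08), while in wild type it went from 12.9, 11.5 and 9.28 TPM to 1.27, 2.39 and 2.99 TPM, a difference of -1.96 ± 0.19 (adjusted p = 6.43e-08). GRP7, a clock-regulated RNA-binding protein, was 980.1, 941 and 969 TPM at 16 °C and 1042, 1076 and 1154 TPM at 22 °C with 0.18 (adjusted p = 0.0533), and fell in wild type from 1063 ± 45.9 TPM to 469 ± 8.74 TPM (SD, n = 3), a difference between the lines of 1.36 ± 0.11 (adjusted p = 1.69e-08). Heat shock genes had no common direction: of 22 tested out of 24, 9 higher and 2 lower were called and the median was 0.01 above that of all genes. HSP70, a cytosolic chaperone, was 1.61, 1.85 and 2.22 TPM at 16 °C and 4.11, 3.46 and 4.92 TPM at 22 °C, a rise of 0.83 ± 0.16 (adjusted p = 1.53e-04), and HSC70-1 rose by 0.47, HSFA7A by 0.5 and MBF1C by 0.79. The 8 small heat shock genes tested ranged from -0.49 to 0.08, and none passed the test in either direction.

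**Figure D2:**
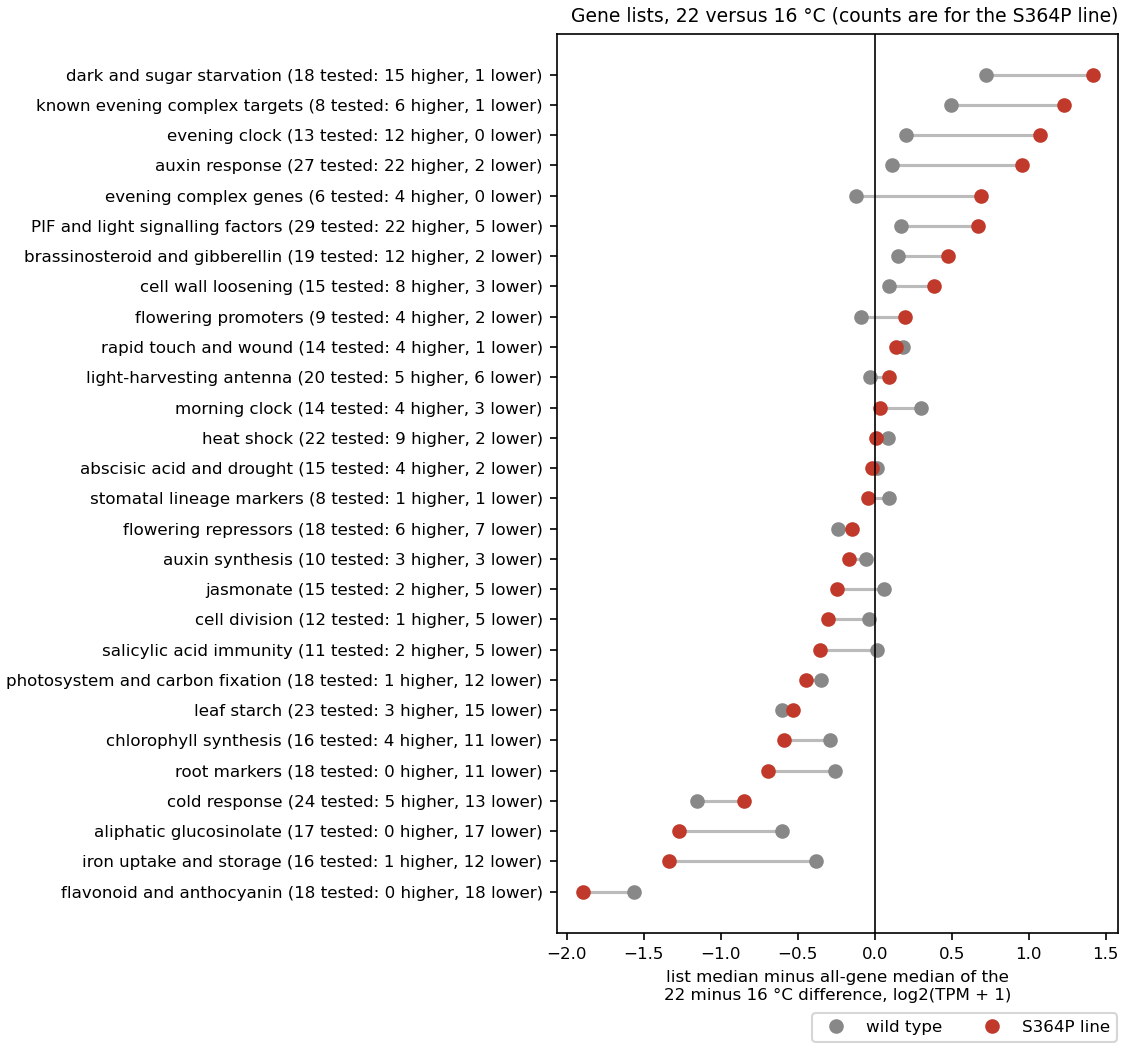
Median difference between 22 and 16 °C of each gene list, relative to the median of all genes tested, in the S364P line (red) and wild type (grey), on the log2(TPM + 1) scale, with the number of members tested and called in the S364P line. Among lists with more than 1 member tested, the starvation, evening complex target and evening clock genes of the S364P line lie furthest right, and its flavonoid, iron and glucosinolate genes furthest left.

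Genes that plants induce in the dark or when sugar runs low were among the strongest risers. DIN1, also known as SEN1, a dark-inducible senescence-associated gene, was 26.9, 22.9 and 32.1 TPM at 16 °C and 874, 788 and 831 TPM at 22 °C, a rise of 4.89 ± 0.24 (adjusted p = 4.2e-13). DIN6, the asparagine synthetase ASN1, was 6.48, 6.44 and 7.82 TPM at 16 °C and 147, 122 and 135 TPM at 22 °C, a rise of 4.1 ± 0.28 (adjusted p = 6.51e-11). BCAT2, which breaks down branched-chain amino acids, was 1.22, 0.66 and 1.03 TPM at 16 °C and 24.9, 21.1 and 26.02 TPM at 22 °C, a rise of 3.67 ± 0.2 (adjusted p = 2.47e-12). The lowest 22 °C library was 24.6 times the highest 16 °C library for DIN1, 15.6 times for DIN6 and 17.3 times for BCAT2. Of 18 genes, 15 higher and 1 lower were called, the last being DIN9, and the median was 1.42 above that of all genes, 0.72 for wild type and 0.85 for the insertion line. The contrast with wild type called 12 higher, or 66.7% of the 18, where 7.81% of all genes were higher. DYL1, a dormancy- and auxin-repressed gene and no list member, was among the 10 largest rises, at 44.99, 45.8 and 46.8 TPM at 16 °C and 619, 620.4 and 630.4 TPM at 22 °C.

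Starch genes mostly fell. Of 23, 3 higher and 15 lower were called, with a median of -0.53 relative to all genes, close to -0.6 in wild type. GBSS1, the granule-bound synthase that makes amylose, was 64.7, 79.3 and 67.4 TPM at 16 °C and 9.23, 8.37 and 7.76 TPM at 22 °C, a difference of -2.92 ± 0.16 (adjusted p = 1.93e-12). Wild type held 114, 131 and 134 TPM and 85.2, 105 and 109.9 TPM, and the lines differed by -2.58 ± 0.22 (adjusted p = 6.42e-08). APL1 and APS1, subunits of the first committed enzyme of starch synthesis, differed by -0.91 and -0.91. AMY3, a chloroplast alpha-amylase, was 24.9, 26.8 and 25.6 TPM at 16 °C and 29.3, 25.8 and 29.97 TPM at 22 °C, not called at 0.13 (adjusted p = 0.267), but was lower at 22 °C in wild type, at -2.02 (adjusted p = 1.96e-12), and the lines differed by 2.15 ± 0.14 (adjusted p = 6.6e-10). In all, 8 higher and 2 lower of the 23 were called against wild type (34.8% and 8.70%), where all genes gave 7.81% and 6.27%. As background, starch genes are under strong clock control.

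Genes of photosynthesis and chlorophyll fell, while a few light-harvesting genes rose. Of 18 photosystem and carbon fixation genes, 1 higher and 12 lower were called, with a median of -0.45 relative to all genes. SBPASE, a Calvin cycle phosphatase, fell from 1328 ± 32.7 TPM to 605 ± 10.08 TPM (SD, n = 3), a difference of -1.13 ± 0.046 (adjusted p = 2.78e-14). RCA, the Rubisco activase, differed by -0.93 and RBCS2B, a Rubisco small subunit with near-identical copies, by -0.94. Of 16 chlorophyll genes, 4 higher and 11 lower were called. GUN4 and GUN5, an activator and the H subunit of magnesium chelatase, differed by -1.14 ± 0.05 (adjusted p = 8.25e-14) and -0.94 ± 0.075 (adjusted p = 9.06e-10). PORB, a protochlorophyllide reductase, went the other way, at 265, 259 and 247 TPM at 16 °C and 671, 725 and 727 TPM at 22 °C, a rise of 1.46 ± 0.061 (adjusted p = 4.02e-14) where wild type gave 0.02 (adjusted p = 0.809). Against wild type, 1 higher and 10 lower of the chlorophyll genes and 8 lower of the photosystem and carbon genes were called. Of all genes, 7.81% were higher and 6.27% lower in that contrast.

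Of the 20 antenna genes, 5 higher and 6 lower were called. Their summed TPM nevertheless rose in the S364P line, from 71510 to 73085 at 16 °C up to 88316 to 93252 at 22 °C. This sum weighs abundant members most and includes LHCB1.5, described below. The mean log2(TPM + 1) of the antenna genes did not rise, at 10.910 to 10.931 at 16 °C and 10.837 to 10.905 at 22 °C. In wild type the summed TPM was 53329 to 56553 at 16 °C and 54337 to 61255 at 22 °C. LHCB4.3, a minor antenna protein of high light, fell by 2.62 ± 0.12 (adjusted p = 2.32e-13), LHCB2.3 fell by 0.95 and LHCB2.1 fell by 0.4 ± 0.065 (adjusted p = 2.05e-05), while LHCA4, of photosystem I, rose by 0.89. ELIP1 and ELIP2, early light-induced proteins that bind free chlorophyll, were among the 10 largest falls. ELIP1 was 66.2, 72.2 and 57.8 TPM at 16 °C and 1.63, 1.57 and 1.59 TPM at 22 °C, a difference of -4.67 ± 0.14 (adjusted p = 3.42e-16), and ELIP2 was 75.5, 101 and 81.5 TPM at 16 °C and 1.92, 2.81 and 1.74 TPM at 22 °C, a difference of -4.79 ± 0.17 (adjusted p = 6.34e-15). In wild type the difference of ELIP1 was -4.71 ± 0.14 (adjusted p = 1.42e-15). LHCB1.5 was 5269, 5410 and 5216 TPM at 16 °C and 11974, 4672 and 11087 TPM at 22 °C, with replicate 2 apart from the others. A noncoding RNA, AT2G08665, which overlaps LHCB1.5 in the TAIR10.1 annotation, was listed at 0 in all 3 libraries at 16 °C and at 57.5, 8229 and 469 TPM at 22 °C. The sums of both were 5269, 5410 and 5216 TPM at 16 °C and 12032, 12901 and 11556 TPM at 22 °C, so the library that was low in LHCB1.5 was high in its overlapping RNA. AT2G08665 had the largest fitted rise of all genes, and its call ended without that library (7.37, adjusted p = 0.0591), so it is not read as a change of that RNA. No source used here says whether counting used strand.

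All flavonoid genes tested fell. Of 18 tested out of 20, 18 lower were called, with a median of -1.9 relative to all genes, against -1.56 for wild type and -0.7 for the insertion line. CHS, chalcone synthase, the entry enzyme, was 146, 169.5 and 143 TPM at 16 °C and 14.9, 13.8 and 16.5 TPM at 22 °C, a difference of -3.26 ± 0.14 (adjusted p = 6.53e-14). FLS1, which makes flavonols, was 47.1, 61.3 and 45.9 TPM at 16 °C and 4.5, 3.34 and 4.29 TPM at 22 °C, a difference of -3.37 ± 0.14 (adjusted p = 2.7e-14). DFR, the first enzyme specific to anthocyanins and tannins, was 15.96, 13.8 and 15.6 TPM at 16 °C and 0.46, 0.29 and 0.61 TPM at 22 °C, a difference of -3.47 ± 0.14 (adjusted p = 2.35e-14). TT19, the glutathione transferase that carries anthocyanins, fell by 3.3. The lowest 16 °C library was 8.64 times the highest 22 °C library for CHS, 10.2 times for FLS1 and 22.6 times for DFR. Against wild type, 8 lower of the 18 were called, where 6.27% of all genes were lower. The split was 4 higher and 6 lower with 5 TPM added before the logarithm. The direction against wild type thus depended on that choice for the less abundant members.

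Aliphatic glucosinolate genes, which make sulfur-rich defence compounds from methionine, fell as a whole list. All 17 tested out of 18 were called lower, with a median of -1.27 relative to all genes against -0.61 in wild type. CYP79F1, which converts chain-elongated methionine, was 12.98, 11.3 and 13.8 TPM at 16 °C and 1.97, 1.62 and 1.8 TPM at 22 °C, a difference of -2.29 ± 0.16 (adjusted p = 1.1e-10). MYB29, a factor that activates the pathway, was 8.73, 7.17 and 9.57 TPM at 16 °C and 1.03, 0.85 and 1.11 TPM at 22 °C, a difference of -2.24 ± 0.11 (adjusted p = 5.82e-13). FMOGS-OX1, a side-chain oxidase, fell by 2.18. Against wild type, 12 lower were called, or 70.6% of the 17, where 6.27% of all genes were lower. The GO list of glucosinolate biosynthesis, taken from the deposited annotation, had 1 higher and 23 lower of 29 tested, and it shares members with the pathway list.

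**Figure D3:**
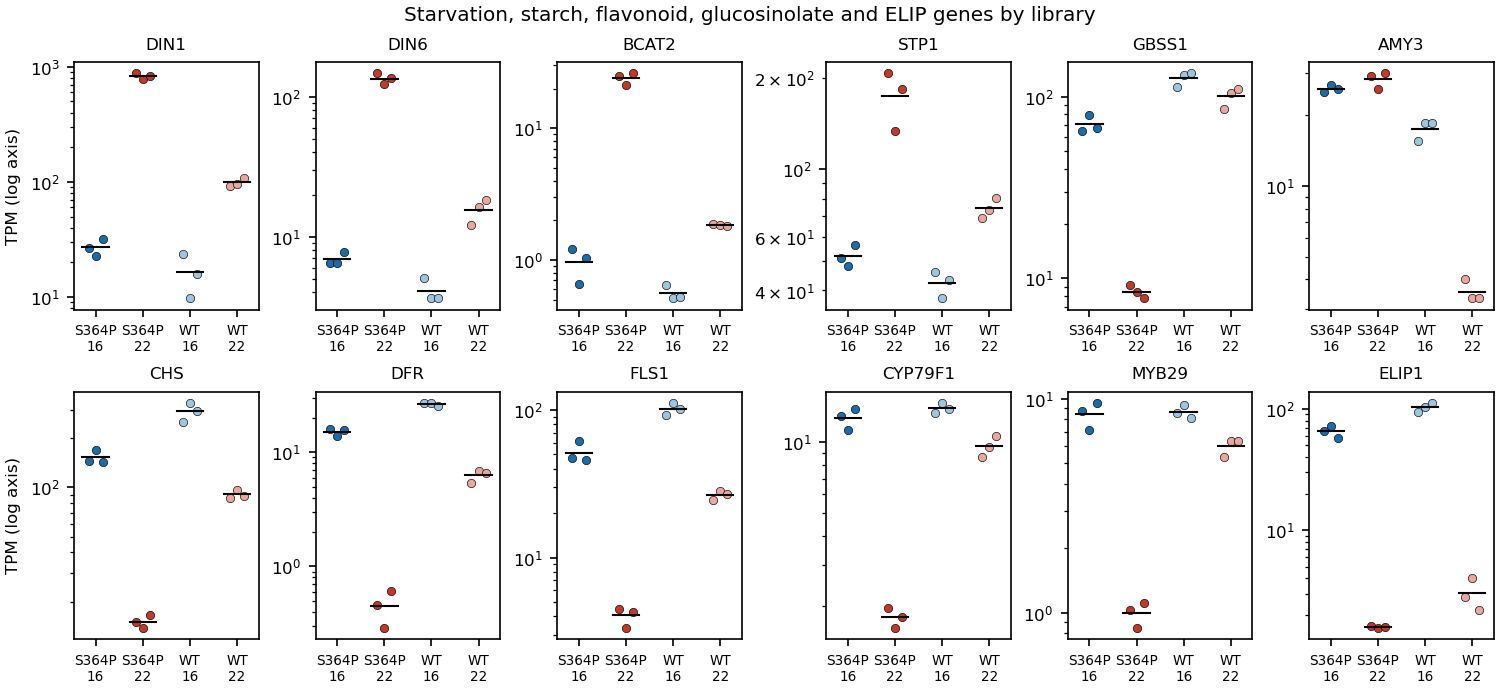
TPM on log axes of starvation genes (DIN1, DIN6, BCAT2, STP1), starch genes (GBSS1, AMY3), flavonoid genes (CHS, DFR, FLS1), glucosinolate genes (CYP79F1, MYB29) and ELIP1 in the 3 libraries (points) and their mean (line) of the S364P line and wild type (WT) at 16 and 22 °C. The 3 S364P libraries at 22 °C are the highest for the starvation genes and the lowest for the flavonoid and glucosinolate genes.

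Iron uptake genes fell in the S364P line, and the change of FRO2 and IRT1 differed from that of wild type. FRO2, the ferric chelate reductase of the root surface, was 32.8, 36.2 and 45.04 TPM at 16 °C and 3.06, 0.75 and 1.53 TPM at 22 °C, a difference of -3.88 ± 0.48 (adjusted p = 6.57e-07). IRT1, the iron transporter that takes up the reduced ion, was 100.1, 112 and 135 TPM at 16 °C and 18.23, 5.7 and 7.04 TPM at 22 °C, a difference of -3.52 ± 0.58 (adjusted p = 2.77e-05). BHLH100, a factor induced by iron shortage, was 6.69, 8.42 and 10.3 TPM at 16 °C and 0.38, 0.2 and 0.05 TPM at 22 °C, a difference of -2.96 ± 0.44 (adjusted p = 6.66e-06). No 22 °C library reached the lowest 16 °C library in any of these 3 genes. FER1, which stores iron in plastids, moved up, at 341, 233 and 193 TPM at 16 °C and 620.1, 505 and 739.8 TPM at 22 °C, a rise of 1.3 ± 0.18 (adjusted p = 3.17e-06). Of 16 iron genes, 1 higher and 12 lower were called, with a median of -1.34 relative to all genes against -0.38 in wild type. Wild type held FRO2 at 21.02, 22.03 and 33.6 TPM and 40.6, 9.32 and 25.5 TPM, and the lines differed by -3.68 ± 0.69 (adjusted p = 8.05e-04). For IRT1 wild type held 71.97, 70.9 and 99.2 TPM and 200.1, 48.2 and 116 TPM, and the lines differed by -3.89 ± 0.83 (adjusted p = 0.00261). CYP82C4 and AT3G12900, which hydroxylate coumarins that mobilize iron (AT3G12900 is scopoletin 8-hydroxylase in the deposited annotation), were no list members and were among the 10 largest falls. CYP82C4 was 41.4, 47.04 and 65.04 TPM at 16 °C and 5.73, 1.23 and 2.3 TPM at 22 °C, a difference of -3.8 ± 0.47 (adjusted p = 5.83e-07), and AT3G12900 was 16.04, 14.99 and 30.6 TPM at 16 °C and 0.8, 0.24 and 0.66 TPM at 22 °C, a difference of -3.73 ± 0.41 (adjusted p = 9.5e-08).

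Root markers moved with the iron genes. Of 18 root markers, which include IRT1, 11 were called lower and none higher, the highest value being 0.38 (adjusted p = 0.497) for TIP2;3, with a median of -0.69 relative to all genes against -0.26 in wild type. Their mean log2(TPM + 1) was 3.5, 3.46 and 3.63 in the S364P libraries at 16 °C and 2.6, 2.23 and 2.7 at 22 °C, with no overlap, and their summed TPM went from 1998 to 2237 down to 1004 to 1483. In wild type the mean was 3.54, 3.52 and 3.5 at 16 °C and 3.63, 3.04 and 3.32 at 22 °C. The summed TPM of wild type went the other way from that of the S364P line, from 1909 to 2167 up to 2421 to 3297. PRP3, a root hair wall protein, was 28.9, 25.8 and 31.1 TPM at 16 °C and 2.79, 2.56 and 3.76 TPM at 22 °C, a difference of -2.88 ± 0.43 (adjusted p = 6.64e-06), where wild type differed by -1.29 ± 0.43 (adjusted p = 0.0209). EXPA7, a root hair expansin, was 9.85, 8.48 and 9.93 TPM at 16 °C and 1.12, 0.74 and 1.91 TPM at 22 °C, a difference of -2.24 ± 0.38 (adjusted p = 3.22e-05). No root marker was listed at 0 throughout a group, and 2 of the 18 at 16 °C and 6 at 22 °C had a mean under 1 TPM in the S364P line. PYK10, the abundant glucosidase of root endoplasmic reticulum bodies, fell by 0.64, a call that ended after quantile normalization, and against wild type PYK10 and IRT1 were the 2 of 18 that were called, both lower. Stomatal markers did not move alike, with KAT1 higher by 1.09, MYB60 at -0.34 ± 0.13 (adjusted p = 0.035) and 6 of 8 not called. The call on MYB60 ended in 4 of 15 alternatives. The part of root content in the iron, coumarin and expansin results was not tested.

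**Figure D4:**
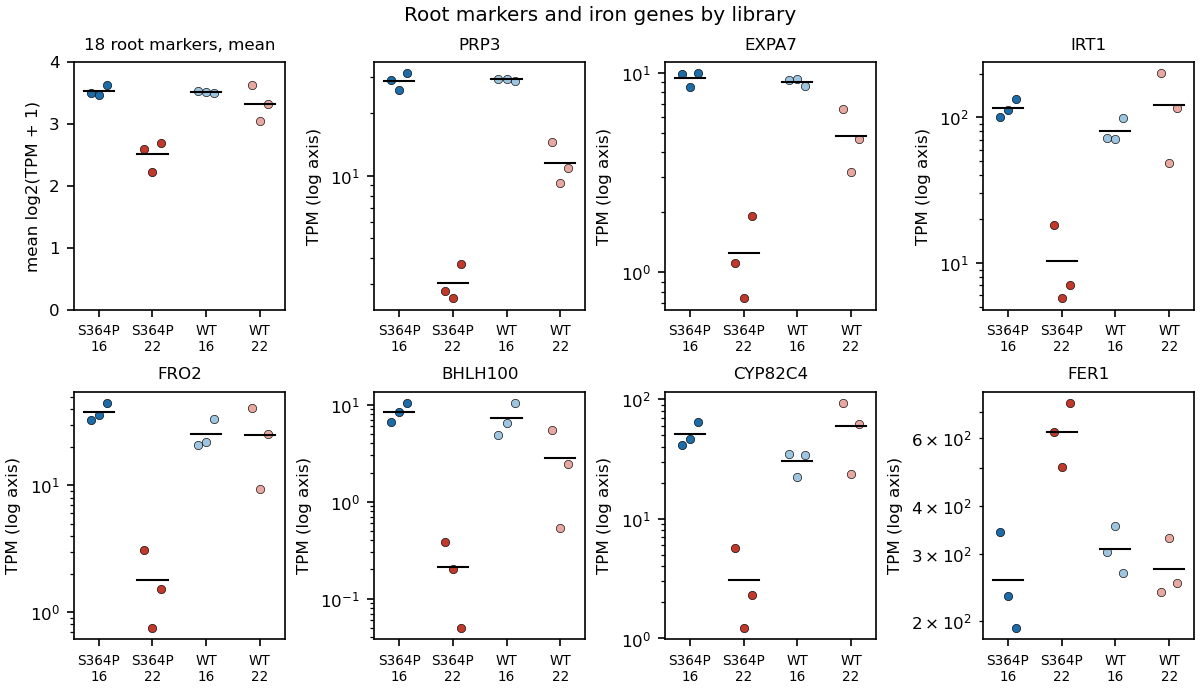
Mean log2(TPM + 1) of 18 root markers (linear axis from 0) and TPM on log axes of root hair genes (PRP3, EXPA7), iron and coumarin genes (IRT1, FRO2, BHLH100, CYP82C4) and FER1 in each library (points) with the mean (line) of the S364P line and wild type (WT) at 16 and 22 °C. All but FER1 are lowest in the 3 S364P libraries at 22 °C, and FER1 is highest there.

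Immune, jasmonate, abscisic acid, touch and cell division lists held calls in both directions. All genes did so too, with 33.1% higher and 22.1% lower, so this alone does not set these lists apart. The share of higher calls was below that of all genes in each of these lists. The share of lower calls was above that of all genes in the immune, jasmonate and cell division lists. It was below that of all genes in the abscisic acid and touch lists. Of 11 salicylic acid genes tested out of 18, 2 higher and 5 lower were called, among them PR5, a pathogenesis-related protein, which fell by 1.16 ± 0.21 (adjusted p = 5.89e-05), and the lipase-like PAD4, which fell by 0.57. SAG101, a partner of the same family, rose by 0.61. Of 15 jasmonate genes tested out of 18, 2 higher and 5 lower were called. AOC2, an oxide cyclase of jasmonate synthesis, differed by -2.61 ± 0.24 (adjusted p = 7.95e-09), and in wild type by -2.55. ST2A, a sulfotransferase that inactivates hydroxyjasmonate, was 1.44, 1.49 and 1.94 TPM at 16 °C and 69.1, 48.3 and 69.3 TPM at 22 °C, a rise of 4.58 ± 0.16 (adjusted p = 2.74e-15), against 2.44, 1.87 and 1.89 TPM and 2.68, 2.01 and 3.06 TPM in wild type. Abscisic acid genes had 4 higher and 2 lower of 15 tested, with ABI1 up by 0.51 and RD22 at -0.65, and the call on PP2CA, at -0.14, ended in 5 of 15 alternatives. Touch and wound genes, which respond to handling, had 4 higher and 1 lower of 14, with ERF104 up by 1.25 and ZAT12 at -1.95. Of 12 cell division genes, 1 higher and 5 lower were called: CYCD3;1, a G1 cyclin, rose by 0.79, and PCNA1, of the replication fork, fell by 0.55.

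Among GO lists from the deposited annotation, genes of rRNA processing and translation fell more often than they rose. Of 179 rRNA processing genes tested, 29 were higher and 84 lower, with a median of -0.25 relative to all genes, and of 47 cytoplasmic translation genes 12 were higher and 26 lower, with -0.29. Wild type had nearly the same medians, -0.26 and -0.31. Of 176 protein folding genes 39 were higher and 70 lower, of 163 photosynthesis genes 31 and 67, of 184 genes of the response to heat 44 and 54, and of 339 genes of the response to cold 101 and 125. Vesicle-mediated transport was the reverse, with 113 of 268 higher and 26 lower and a median 0.1 above that of all genes. Median-of-ratios scaling changed these to 80 higher and 59 lower.

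Other genes among the 10 largest rises and falls had no place in a list. RTFL21, a small ROTUNDIFOLIA-like peptide, was 0, 0.1 and 0 TPM at 16 °C and 20.3, 15.9 and 16.8 TPM at 22 °C, listed at 0 in 2 of 3 libraries at 16 °C, and wild type was 0, 0.1 and 0 TPM at 22 °C. AT1G26790, the Dof zinc finger protein DOF1.3, was 33.8, 38.1 and 33.8 TPM at 16 °C and 2.45, 1.96 and 1.69 TPM at 22 °C, a difference of -3.58 ± 0.095 (adjusted p = 3.43e-17). AT4G12495, annotated as a transmembrane protein, was 36.1, 61.6 and 44.4 TPM at 16 °C and 0.87, 1.92 and 1.51 TPM at 22 °C. The unnamed assembled locus MSTRG.4797 was 18.7, 20.2 and 13.1 TPM at 16 °C and 0, 0.52 and 0.29 TPM at 22 °C, and it was lower at 22 °C in wild type as well, at -4.95 against -3.85. AT4G39361, a small nucleolar RNA, was 30.7, 14.4 and 14.4 TPM at 16 °C and 0, 0 and 0 TPM at 22 °C. AT2G09395, an antisense RNA, was 237, 262 and 198 TPM at 16 °C and 0, 38.5 and 40.5 TPM at 22 °C, and its call ended without the 22 °C replicate 1 (-2.52, adjusted p = 0.148), while the value was -5.17 or -5.20 without the 22 °C replicate 2 or 3.

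Most genes called in wild type moved the same way in the S364P line. Wild type had 8172 genes called (38.2%), 5663 (26.5%) higher and 2509 (11.7%) lower at 22 °C, and 4463 were higher and 2003 lower in both lines, that is, 54.7% of the S364P calls and 79.1% of the wild-type calls. Another 158 were called in opposite directions. The median absolute difference was 0.33 in the S364P line and 0.23 in wild type over the 21396 genes, and the differences correlated at r = 0.64 across genes, which are not independent replicates. The test of the difference between the lines called 1672 genes (7.81%) with a more positive and 1341 (6.27%) with a more negative change in the S364P line. Of these 3013 genes, 85.1% had the larger absolute change in the S364P line, and their median absolute difference was 0.75 there against 0.31 in wild type. The 3013 genes were picked by a difference between the lines in these same libraries, so the size of this gap is no separate evidence. By single calls, 891 of the 3013 were higher in both lines, 372 lower in both, 653 higher and 622 lower in the S364P line alone, 217 higher and 76 lower in wild type alone, 158 in opposite directions and 24 in neither line. Of the calls, 96.3% were kept with a pseudocount of 0.1 TPM. The share of more positive calls was 55.5%, and 44.6% after median-of-ratios scaling.

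**Figure D5:**
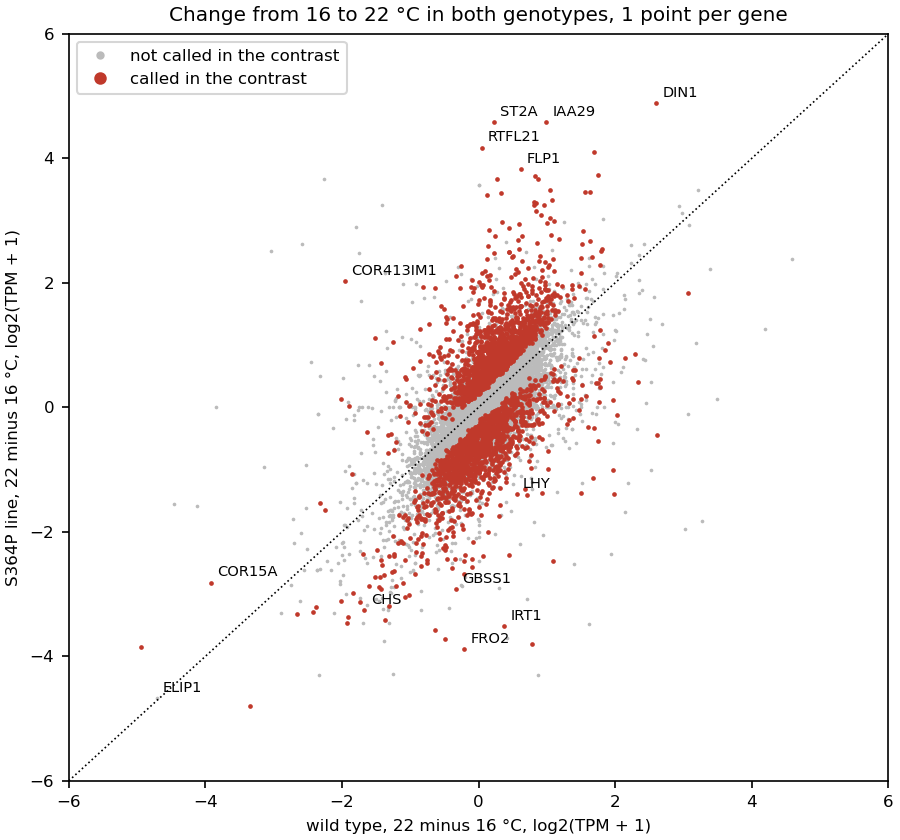
Difference between 22 and 16 °C on the log2(TPM + 1) scale in wild type (x axis) and the S364P line (y axis), 1 point per gene over 21396 genes, with the 3013 genes called in the contrast of the lines in red, the dotted line marking equal change, and 1 gene outside the axes. Most red points lie further from 0 on the y axis than on the x axis.

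The genes whose change departed most from wild type were mostly named above. On the positive side these were ST2A, RTFL21, COR413IM1, IAA29, CCL, IAA19, FLP1 and AT5G02540, with excesses from 4.36 for ST2A to 3.12 for AT5G02540. Some of these changes were shared with the insertion line. ST2A (0.69, adjusted p = 0.0831) and FLP1 (-0.20, adjusted p = 0.756) did not pass the test of a difference from it. IAA29 (3.33, adjusted p = 5.95e-11) and IAA19 (2.69, adjusted p = 4.76e-07) did. CCL, a gene known for its clock-gated transcript decay, was 13.4, 15.5 and 17.1 TPM at 16 °C and 212, 176 and 230.2 TPM at 22 °C in the S364P line and 12.5, 9.05 and 12.7 TPM and 17.5, 10.8 and 14.1 TPM in wild type. AT5G02540, annotated as a Rossmann-fold dehydrogenase, was 6, 5.64 and 5.67 TPM at 16 °C and 79.8, 64.9 and 74.6 TPM at 22 °C in the S364P line and 7.54, 7.08 and 7.31 TPM in wild type at 22 °C. Of the 8 positive genes, none overlapped between temperatures in the S364P line. They were picked by their change in these same libraries, so this is no separate evidence. Of all genes, 37.5% did not overlap in the upward direction. On the negative side the 4 iron and coumarin genes FRO2, IRT1, CYP82C4 and AT3G12900 stood with AT4G07975, AT5G03375, AT1G79170 and AT2G04050, whose libraries scatter widely.

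Fewer genes were called in the contrast with the insertion line than in that with wild type. That line had 6631 genes (31.0%) higher and 3707 (17.3%) lower at 22 °C, of which 5467 and 2954 matched the direction of a call in the S364P line, 71.3% of the S364P calls and 81.5% of the insertion-line calls, with 81 opposite and r = 0.78 across genes. The test of the difference called 1030 genes (4.81%), 585 (2.73%) with a more positive and 445 (2.08%) with a more negative change in the S364P line. All 18 flavonoid genes fell in the S364P line, and for 14 of them the fall exceeded that of the insertion line by the test of the difference with 1 TPM added, and for 9 with 0.1 TPM added. CHS was at 63.7 ± 18.4 TPM and 11.2 ± 1.12 TPM (SD, n = 3) at 16 and 22 °C in that line and the lines differed by -0.87 ± 0.2 (adjusted p = 0.00993), a call that ended when the groups were fitted alone. IAA29 exceeded the insertion-line change by 3.33 ± 0.17 (adjusted p = 5.95e-11) and PIF4 by 1.2 ± 0.12 (adjusted p = 2.26e-06). Both genes were already higher at 16 °C in the insertion line. Its means at 16 and 22 °C were 26.2 and 63.2 TPM for IAA29, and 41.1 and 80.4 TPM for PIF4. In the S364P line they were 1.95 and 69.98 TPM for IAA29, and 14.3 and 67.0 TPM for PIF4. For FRO2 and IRT1 the changes did not pass the test of a difference from the insertion line, at -0.02 (adjusted p = 0.992) and -0.09 (adjusted p = 0.976). Root markers in that line had a median of -0.63 relative to all genes.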

How the data were processed

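Messenger RNA of whole seedlings was sequenced on an Illumina NovaSeq per the labels' protocols. The authors deposited TPM values, per the file headers, for 33039 genes in 27 libraries. No source used here gives the aligner, quantifier, strand setting or genome build, so coordinates and sequences are not printed. TPM corrects for gene length, sums to a fixed total in each library and keeps no read number. The RefSeq annotation of TAIR10.1, which served only for names and locus overlaps, held 32547 of the IDs. Columns were matched to samples by name, and for the insertion line at 16 °C 2 columns could be matched to the group only.

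The tests used log2(TPM + 1), and genes reaching 1 TPM in 3 or more libraries, 21396 in all, entered the test. A linear model with 9 group means was fitted over all 27 libraries with limma 3.58.1 in R 4.3.3, with a variance trend and 18 residual and 3.17 prior degrees of freedom. The tests were 22 versus 16 °C in each line and the S364P change minus that of wild type and of the insertion line, two-sided, with Benjamini-Hochberg adjustment over all genes tested and calls at an adjusted p below 0.05. Tables and figures were made with Python 3.11.15, pandas 2.3.3 and matplotlib 3.10.9.

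The members and gene lists were chosen with earlier results of these data known. There were 30 lists of 479 genes and 8 GO lists from the deposited annotation, described by counts and medians with no set test. Named genes were a core of 25, the up to 3 called members of each list with the largest difference and a mean of at least 5 TPM, the 10 largest rises and 10 largest falls without overlap of libraries, and the 8 largest positive and 8 largest negative differences from wild type. For genes picked by their difference, a gap between the libraries of both temperatures is no separate evidence. Other list members are named as exceptions to the direction of a list, and GRP7, AMY3, YUC2, HY5, LNK1, FER1, SEP3, PYK10, LHCB1.5 and the gibberellin genes were chosen after their values were seen. Alternatives were pseudocounts of 0.1 and 5 TPM, a filter at 5 TPM and none, median-of-ratios and quantile scaling, leaving out 285 organelle genes, fits restricted to the compared groups, a replicate block and leaving out each library.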

Additional observations from a re-analysis of the deposited data

Results flagged for a closer look

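The following results stood out because the change from 16 to 22 °C differed between lines in a direct test. Against wild type, 1672 genes had a more positive and 1341 a more negative change in the S364P line. Against the insertion line, 585 genes had a more positive and 445 a more negative change.

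Among genes that averaged 5 TPM or more in a group, the largest excesses over wild type on the log2(TPM + 1) scale were 4.36 for ST2A, 4.12 for RTFL21, 3.98 for COR413IM1, 3.60 for IAA29, 3.38 for CCL, 3.29 for IAA19, 3.20 for FLP1 and 3.12 for AT5G02540. In each of these 8 genes the 3 S364P libraries at 22 °C lay above the 3 at 16 °C, as was the case for 37.5% of all genes. The 8 were picked by their change in these same libraries, so this is no separate evidence. RTFL21 and FLP1 were listed at 0 in at least 2 of 3 libraries at 16 °C in both lines, so their fitted values depend on the pseudocount.

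The largest deficits were -4.58 for CYP82C4, -3.89 for IRT1, -3.68 for FRO2, -3.57 for AT4G07975, -3.38 for AT5G03375, -3.24 for AT3G12900, -3.05 for AT1G79170 and -2.96 for AT2G04050. For the coumarin gene AT3G12900 the value was -3.90 without the wild-type 22 °C replicate 2, which held 2.23 TPM against 14.8 and 9.26 TPM in the others. The smallest deficit with any 1 library left out was -2.75. Root markers moved with the iron and coumarin genes, and their part was not tested. The antisense RNA AT4G07975 was 2.09, 4.04 and 10.03 TPM at 16 °C and 0, 0 and 0 TPM at 22 °C in the S364P line, and its call ended without the S364P 16 °C replicate 3 (-3.08, adjusted p = 0.0556) or the wild-type 22 °C replicate 3 (-2.98, adjusted p = 0.0547), and the value was -4.38 without the wild-type 22 °C replicate 1. The noncoding RNA AT5G03375 was 7.77, 5.35 and 8.29 TPM at 16 °C and 3.78, 0 and 4.89 TPM at 22 °C in the S364P line and 1.47, 0.9 and 0 TPM and 4.61, 6.33 and 6.06 TPM in wild type, and without the S364P 22 °C replicate 2 its deficit was -2.58. AT1G79170, annotated as a transmembrane protein, rose in wild type from 0, 1.62 and 0 TPM to 6.68, 7.07 and 8.51 TPM and was 3.21, 1.55 and 2.38 TPM at 16 °C and 1.66, 0 and 4.45 TPM at 22 °C in the S364P line, with a deficit of -2.40 without the S364P 22 °C replicate 2. AT2G04050, a MATE efflux protein, was 4.8, 19.8 and 27.9 TPM and 82.2, 46.99 and 50.4 TPM in wild type, and its call ended in 11 of 21 alternatives, with an adjusted p of up to 0.142 in them and values of -2.27 without the wild-type 16 °C replicate 1 and -3.55 without the S364P 22 °C replicate 2.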

How the results depend on the processing

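No called difference of a named gene changed sign in any alternative run; among all genes, those that turned are counted below. Leaving out 1 library at a time gave 6389 to 6921 genes higher and 3944 to 4618 lower for the S364P line, 4535 to 5491 and 1922 to 2238 for wild type, and 5824 to 6427 and 2916 to 3816 for the insertion line. The contrast with wild type then had 1248 to 1589 genes higher and 926 to 1296 lower, and that with the insertion line 445 to 661 and 345 to 460. Of the 11815 calls in the S364P line, between 10427 and 10729 were kept in these fits. Median-of-ratios scaling gave 5604 higher and 6625 lower in the S364P line, with 10337 calls kept and 8 turned, and quantile normalization 6297 and 5937, with 10639 kept and 5 turned. Genes lower in wild type numbered 4104 and 3919 under these scalings. Fits of the compared groups alone gave 2281 genes lower in the contrast with wild type, and 376 higher and 265 lower in that with the insertion line; the cause was not tested. After median-of-ratios scaling the share of more positive calls against the insertion line was 47.2%, against 56.8%.

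The replicate numbers share only a number: same-numbered S364P libraries at 16 and 22 °C deviated together at r = 0.028, 0.132 and 0.02. With a replicate block the S364P line had 7151 genes higher and 4810 lower, wild type 5733 and 2547, the insertion line 6724 and 3771, the contrast with wild type 1712 and 1428 and that with the insertion line 621 and 473. Depth cannot be judged from TPM, temperature and listed sampling time cannot be told apart, and 3 libraries a group limit the precision.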

Other observations

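The S364P libraries at 29 °C, which the protocol lists at 24 h, enter no comparison above, and their values are given without a test. ELF3 was 67.5, 72 and 69.9 TPM, above all libraries at 16 and 22 °C. PIF4 was 90.08, 113 and 112 TPM and LUX was 108, 114 and 122 TPM. CCA1 was 4.11, 4.84 and 4.18 TPM. Of the growth genes, IAA29 was 72.7, 81.01 and 71.01 TPM and YUC8 was 23.1, 29.9 and 29.9 TPM. CHS was 19.8, 17.9 and 15.5 TPM and DIN1 was 1856, 2401 and 3293 TPM. FRO2 was 2.1, 0.39 and 0.53 TPM and IRT1 was 10.7, 1.83 and 2.29 TPM. The chaperone gene HSP70 was 83.5, 69.99 and 53.7 TPM.

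The split between LHCB1.5 and the overlapping noncoding RNA AT2G08665 was also seen in the insertion line at 22 °C. There LHCB1.5 was 0, 4585 and 13489 TPM and AT2G08665 was 15413, 8260 and 415 TPM, and the sums were 15413, 12845 and 13904 TPM. In wild type AT2G08665 was listed at 0 in all 6 libraries at 16 and 22 °C.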
